A study of Mus musculus with 6 samples.

Results

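The genes described here encode chemokines and cytokines that muscle precursor cells can make, together with a pair of chemokine receptors. They are the ligands Cxcl12, Ccl2, Ccl7, Cxcl1, Cxcl5, Il6, Lif and Csf1 and the receptors Cxcr4 and Ackr3. Every probe set whose platform annotation gives exactly 1 gene symbol, and that symbol is among these 10 genes, was taken. This gave 18 probe sets of the 45101 on the array, and 10 of the 18194 genes named on it. Of these, 9 probe sets of 4 genes (Cxcl12, Cxcr4, Ackr3 and Csf1) were bright enough to test. The other 9, which are all the probe sets of Ccl2, Ccl7, Cxcl1, Cxcl5, Il6 and Lif, had a low signal.

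Chemokines are small secreted proteins that steer migrating cells by activating receptors coupled to G proteins. CXCL12 acts through CXCR4, and ACKR3, formerly named CXCR7, binds the same ligand, signals through arrestin and removes it from the surroundings. During development CXCR4 guides migrating muscle precursors into the limb, and in injured muscle CCL2, CCL7, CXCL1, CXCL5 and CSF1 draw in or sustain neutrophils, monocytes and macrophages. IL6 and LIF are cytokines that signal through the shared receptor chain gp130 and the factor STAT3, and both act on myoblasts themselves.

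The study profiled primary mouse myoblasts on 6 Affymetrix arrays, 3 of control cells and 3 of cells infected with lentivirus carrying a short hairpin RNA (shRNA) that targets LncMyoD. This long non-coding RNA has been studied as a regulator of muscle differentiation. The shRNA was carried by a Tet-pLKO-puro vector, all 6 samples carry an age label of 21 days, and the labels state neither what the controls received nor whether the profiled cells were in growth or differentiation medium. LncMyoD itself was not analysed here, so the knockdown was not checked. The replicates are labelled biological without naming separate cultures or mice. The p-values therefore reflect the variation among these 6 arrays, part of which may be technical. Values are the authors' normalized log2 signals, and a difference of 1 means a 2-fold change. A probe set was tested when its mean over the 6 arrays was at least 6.50, which left out the dimmest 40%. Whether a signal below that level was above background was not tested.

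The labelled cell type was checked against marker genes. All 9 myoblast markers passed the filter, and their mean signal ran from 12.56 to 12.65 in the controls and from 12.73 to 12.80 in the shRNA arrays. Among them 3 rose and 2 fell, and those that rose were Pax7 (0.66), Cdh15 (0.40) and Myf5 (0.62), which mark satellite cells and myoblasts. Those that fell, named after their values were seen, were Myog, a factor of differentiating myoblasts (-0.13, limma adjusted p = 0.0115), and Ncam1, an adhesion protein (-0.11, limma adjusted p = 0.0182). The call of Ncam1 was kept in 13 of 17 alternatives and lost, among others, without control array 3 or shRNA array 1. Of its 6 other tested probe sets 5 fell past the threshold too, and its difference ran from -0.47 to -0.078 over all alternatives. Among all genes tested 58.5% passed. Of 13 macrophage and other leukocyte markers 7 passed the filter, with list means of 6.16 to 6.29 in controls and 6.19 to 6.41 in shRNA arrays. Ptprc (5.07 and 5.03), Adgre1 (5.56 and 5.61) and Itgam (5.97 and 5.94), which define leukocytes and macrophages, were low in both groups. Cd14, a co-receptor for bacterial lipopolysaccharide, rose by 1.07, from 6.12 to 7.19 (0.69 with values raised to 6.50). Cd68, a lysosomal protein of macrophages, rose by 0.33, from 6.40 to 6.73 (limma adjusted p = 0.0331). Both had a control mean below 6.50 and passed the filter through the shRNA arrays. The call of Cd68 was lost in 8 of 16 alternatives, among them 5 of the 6 that left out an array. The 5 other tested leukocyte markers did not pass. Laptm5, Fcer1g, Tyrobp, Cd79a and Lyz2 differed by -0.26 to -0.014, and the median of the 7 was -0.091. Of 10 fibroblast and fibro-adipogenic markers 4 passed, with list means of 6.19 to 6.30 in controls and 6.23 to 6.34 in shRNA arrays. There Pdgfra rose by 0.89, from 6.63 to 7.51, and Dpep1 fell by 0.87, while Dcn (5.41 and 5.61), Lum and Thy1 were low. None of 7 endothelial markers passed the filter. The part of other cell types in the results that follow was not tested. RNA integrity, read as 3' over 5' signal (log2) of actin and GAPDH, differed slightly between the groups. The ratio was 0.51 and 0.55 for actin and 0.14 and 0.23 for GAPDH in control and shRNA arrays. A two-sided exact permutation test gave p = 0.1 for each, the lowest value it can take with 20 assignments. What this difference contributes to the results was not tested.

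The 250 bases before the annotated start are shown for the 3 genes with a probe set past the test's threshold (Cxcr4, Cxcl12 and Csf1) and, for contrast, for Cxcl1 and Il6, genes of low signal. They come from RefSeq with build GRCm38.p6, whose table held 7 of the 10 genes. The windows are chr1:128592300-128592549 on the minus strand, chr6:117168285-117168534 on the plus strand, chr3:107760470-107760719 on the minus strand, chr5:90890995-90891244 on the plus strand and chr5:30012864-30013113 on the plus strand. Each reads 5′ to 3′ along its gene, and capitals mark the GC box (GGGCGG) and the NF-kB site on either strand, with overlapping matches run together.
Cxcr4: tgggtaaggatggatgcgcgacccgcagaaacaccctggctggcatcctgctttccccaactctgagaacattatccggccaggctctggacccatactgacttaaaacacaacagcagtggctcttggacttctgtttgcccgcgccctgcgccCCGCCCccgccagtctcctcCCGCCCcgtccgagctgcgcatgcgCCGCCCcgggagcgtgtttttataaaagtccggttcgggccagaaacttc
Cxcl12: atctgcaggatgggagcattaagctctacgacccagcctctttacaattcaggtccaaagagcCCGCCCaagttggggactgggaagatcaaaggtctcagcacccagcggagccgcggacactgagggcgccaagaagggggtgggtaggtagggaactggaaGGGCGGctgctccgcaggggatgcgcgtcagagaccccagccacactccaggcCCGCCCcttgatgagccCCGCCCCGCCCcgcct
Csf1: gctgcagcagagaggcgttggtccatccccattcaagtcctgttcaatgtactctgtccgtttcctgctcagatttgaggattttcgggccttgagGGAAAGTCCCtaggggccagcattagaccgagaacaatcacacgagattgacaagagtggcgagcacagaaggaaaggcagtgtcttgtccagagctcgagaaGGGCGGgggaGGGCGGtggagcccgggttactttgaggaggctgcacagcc
Cxcl1: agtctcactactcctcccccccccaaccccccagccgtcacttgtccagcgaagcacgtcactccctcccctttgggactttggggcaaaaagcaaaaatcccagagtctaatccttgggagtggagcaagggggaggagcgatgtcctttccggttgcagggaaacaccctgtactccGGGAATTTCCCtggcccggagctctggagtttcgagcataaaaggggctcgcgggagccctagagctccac
Il6: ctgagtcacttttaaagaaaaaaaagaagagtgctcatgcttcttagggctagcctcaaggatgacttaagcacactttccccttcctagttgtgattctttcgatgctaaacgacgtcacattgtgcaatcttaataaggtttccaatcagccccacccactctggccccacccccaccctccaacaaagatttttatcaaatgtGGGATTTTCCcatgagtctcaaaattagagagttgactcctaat

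A GC box was present in the windows of all 4 tested genes, with 3 matches in Cxcr4, 5 in Cxcl12, 2 in Csf1 and 1 in Ackr3. It was present in 0 of the 3 low-signal genes with a window (Cxcl1, Il6 and Lif), and in 32.7% of all 32851 promoter windows of this length. The NF-kB site was found in Csf1, 154 bases before the start, in Il6 and Lif with 1 match each, and in Cxcl1 with 2 overlapping matches, against 7.25% of all windows. The E-box (CANNTG), the letters that myogenic factors bind, was in Il6, Cxcl1 and Lif and in none of the 4 tested genes, with 66.2% of all windows holding it. TATAAA lay 32 and 30 bases before the start of Cxcr4, overlapping itself on both strands, and 8 bases before that of Ackr3 (12.4% of all windows). The AP-1 letters TGANTCA were in Il6 and Lif (6.75% of all windows), and the STAT letters TTCNNNGAA were in none of the 7 (7.02%). The GC content was 61.2% in Cxcr4, 64.4% in Cxcl12, 56.4% in Csf1 and 54% in Ackr3. Among the dim genes it was 63.6% in Lif, 59.2% in Cxcl1 and 42.8% in Il6, which overlaps the range of the tested genes. The median over all windows was 52.4%. These matches describe letters in a window and do not show that a factor binds there.

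The 1 probe set of Cxcr4, 1 of 3 of Cxcl12 and 2 of 4 of Csf1 rose in the shRNA arrays, by 1.51-fold to 1.76-fold. The other probe sets of Cxcl12 and Csf1 did not pass. Of the 9 tested probe sets, 4 had groups that did not overlap, against 59.5% of all tested probe sets. The same 4 passed the threshold in limma's test (Benjamini-Hochberg adjusted p under 0.05) and were higher. Among all 27022 tested probe sets 53.9% passed, 30.4% higher and 23.5% lower, so a share of 44.4% among 9 is near the background. The balance of directions over the whole array depended on scaling, with 56.4% of calls higher as deposited and 45.0% after median centring of the arrays. The 4 differences were larger than 0.37, the median absolute difference of all probe sets past the threshold. An increase of at least 0.59, a cut-off taken from the smallest of the 4, was seen in 7.04% of tested probe sets. In bulk RNA, a change in the share of a cell type and a change in RNA per cell cannot be told apart.

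**Figure D1:**
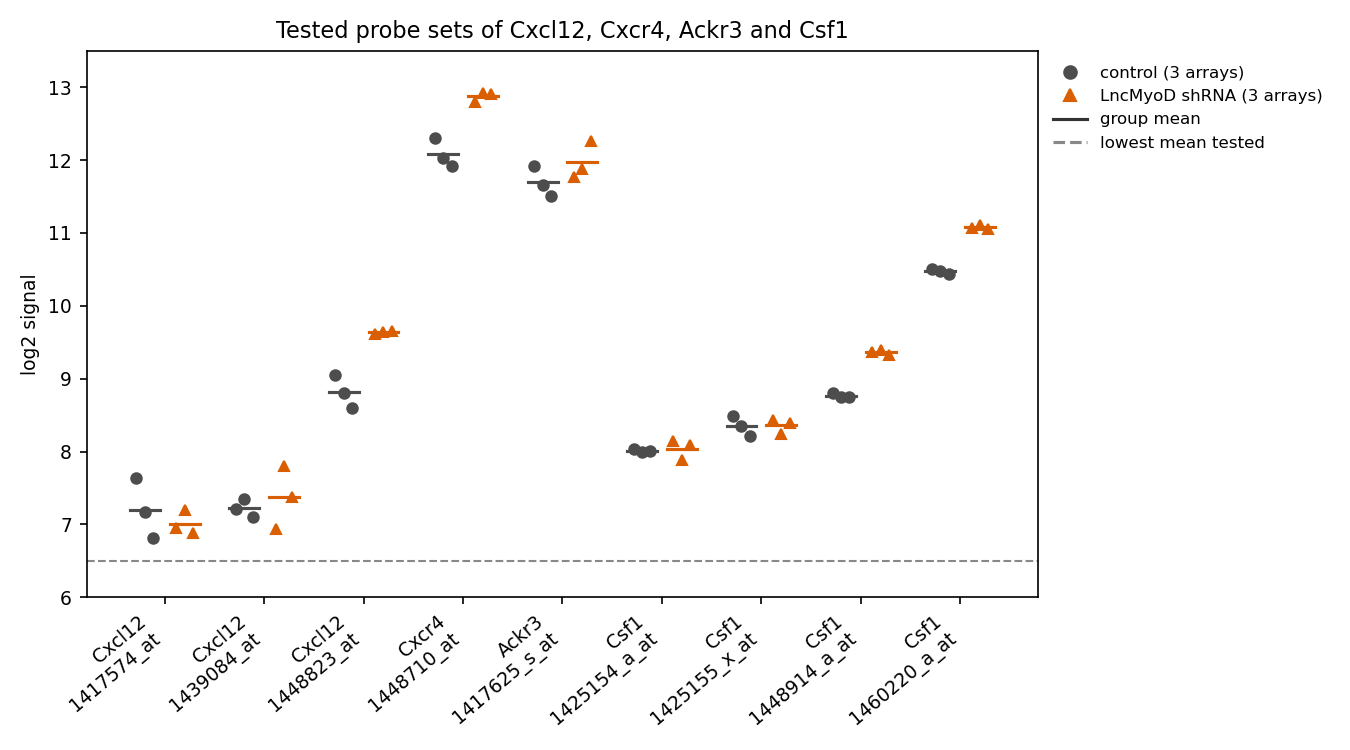
Log2 signal of the 9 tested probe sets of Cxcl12, Cxcr4, Ackr3 and Csf1 (x axis) on each of 3 control arrays (circles) and 3 LncMyoD shRNA arrays (triangles), with group means as bars and the lowest mean tested, 6.50, as a dashed line. The groups are apart for Cxcr4, for Cxcl12 on 1448823_at and for Csf1 on 1448914_a_at and 1460220_a_at, and overlap on the other 5.

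Cxcr4, the signalling receptor for CXCL12, was read by 1 probe set (1448710_at). Its log2 signals were 12.31, 12.02 and 11.92 in control arrays 1 to 3 and 12.79, 12.92 and 12.91 in the shRNA arrays. Every shRNA array lay above every control, with a gap of 0.49 between the groups, and the controls spread more widely than the shRNA arrays. The mean rose from 12.08 ± 0.20 to 12.88 ± 0.072 (SD, n = 3), a difference of 0.79 (SE 0.077, limma adjusted p = 2.16e-06), or 1.73-fold. The difference exceeded that of 96.3% of tested probe sets.

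Ackr3, the atypical receptor of the same ligand, was read by 1 probe set (1417625_s_at). It stood at 11.92, 11.66 and 11.50 in the controls and 11.77, 11.87 and 12.26 in the shRNA arrays. Control array 1 lay above both shRNA array 1 and shRNA array 2, so the groups overlapped. The difference of 0.28 (SE 0.11, 95% interval 0.029 to 0.52) did not pass the threshold (limma adjusted p = 0.0565, unadjusted p = 0.0311). It passed without control array 1 (0.39, limma adjusted p = 0.00883), without shRNA array 1 (0.37, 0.0134) and with the arrays scaled on spike-in controls (0.27, 0.0100), and in none of the 12 other alternatives.

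Cxcl12 was read by 3 probe sets that did not move alike. On 1448823_at, the brightest, it stood at 9.05, 8.81 and 8.60 in the controls and 9.62, 9.63 and 9.66 in the shRNA arrays. The shRNA arrays lay close together and above all controls. As for Cxcr4 and Ackr3, the signal fell from control array 1 to control array 3. Whether these genes vary independently across arrays was not tested. The mean rose from 8.82 ± 0.22 to 9.64 ± 0.019 (SD, n = 3), by 0.82 (SE 0.097, limma adjusted p = 1.25e-05), or 1.76-fold. The 2 other probe sets were dimmer. On 1417574_at the signals were 7.63, 7.17 and 6.81 in controls and 6.95, 7.19 and 6.88 in shRNA arrays, and on 1439084_at they were 7.21, 7.36 and 7.10 against 6.94, 7.80 and 7.38. Both overlapped between the groups. Their differences of -0.20 (95% interval -0.58 to 0.18, limma adjusted p = 0.369) and 0.15 (-0.23 to 0.53, limma adjusted p = 0.493) had intervals that did not reach the 0.82 of the brightest probe set. Each turned sign when 1 array was left out, the first without control array 1 (0.016) and the second without shRNA array 2 (-0.060). Leaving out shRNA array 1 brought the second past the threshold (0.37, limma adjusted p = 0.0462).

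Csf1, the growth factor of macrophages and their precursors, was read by 4 probe sets in 2 pairs. Each pair shares a source sequence in the platform annotation. On 1460220_a_at the signals were 10.51, 10.48 and 10.44 in controls and 11.07, 11.11 and 11.06 in shRNA arrays. On 1448914_a_at they were 8.80, 8.75 and 8.75 against 9.36, 9.39 and 9.33. On both, the groups were apart by over 0.5 and the arrays of a group lay within 0.1 of each other. The first rose by 0.60 (SE 0.046, limma adjusted p = 2.58e-07), 1.52-fold, and the second by 0.59 (SE 0.068, limma adjusted p = 9.01e-06), 1.51-fold. The other pair overlapped between the groups. On 1425154_a_at the means were 8.01 ± 0.017 and 8.04 ± 0.14 (SD, n = 3), a difference of 0.027 (95% interval -0.18 to 0.24, limma adjusted p = 0.835). On 1425155_x_at they were 8.35 ± 0.14 and 8.36 ± 0.10, a difference of 0.0069 (-0.20 to 0.22, limma adjusted p = 0.960). These intervals do not reach 0.59, so the 2 pairs gave different answers for the same gene. Where each probe set lies on the transcript is not analysed here. A long non-coding RNA, Gm40121, overlaps Csf1 in the RefSeq annotation.

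The disagreement between probe sets of a gene was measured within arrays, as the log2 ratio of 1 probe set to another. There were 9 such pairs in Cxcl12 and Csf1, compared after their values had been seen. In all 4 pairs of a Csf1 probe set that did not pass over one that did, the ratio was lower in every shRNA array than in every control, with changes of -0.57 to -0.60 (two-sided exact permutation p = 0.1, adjusted p = 0.18 over 9 pairs). The ratio of the 2 probe sets that passed, 1448914_a_at over 1460220_a_at, changed by -0.011 (exact permutation p = 0.4). For Cxcl12, the ratio of 1417574_at over 1448823_at changed by -1.02 without overlap (exact permutation p = 0.1, adjusted p = 0.18). That of 1439084_at over 1448823_at changed by -0.67 with overlap (exact permutation p = 0.2, adjusted p = 0.3). With 3 arrays a group, the exact permutation test cannot go below p = 0.1. Each change is the gap between 2 differences given above, and the pairs share probe sets. The ratios are therefore not separate evidence of the disagreement.

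**Figure D2:**
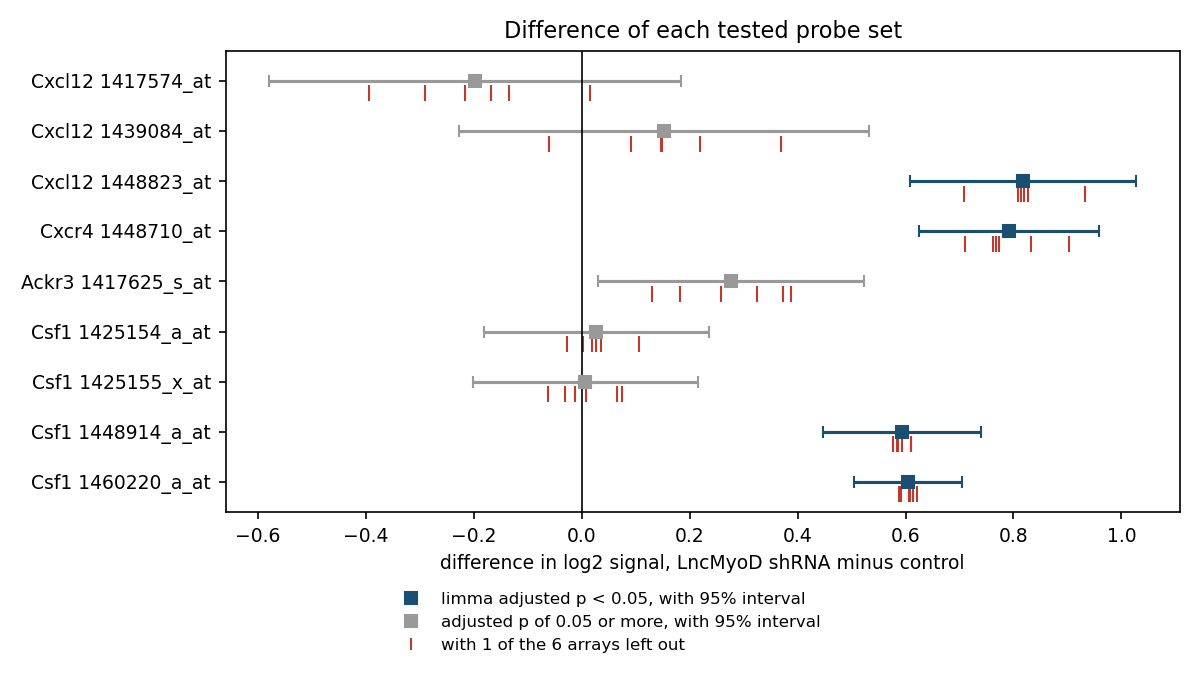
Difference in log2 signal, LncMyoD shRNA minus control, for the 9 tested probe sets (squares, with limma's 95% interval; dark where the adjusted p is under 0.05), and the same difference with each of the 6 arrays left out (red ticks). The 4 dark squares lie between 0.59 and 0.82, and their ticks stay between 0.58 and 0.93.

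The 4 calls held in each of the 16 alternatives that fitted these probe sets. The mean of all probe sets of a gene, read for the list genes, was not read for the members. The calls of Cxcl12 and Csf1 therefore hold for single probe sets, and other probe sets of both genes did not pass. With 1 array left out, the difference ran from 0.71 to 0.90 for Cxcr4, from 0.71 to 0.93 for Cxcl12 on 1448823_at, from 0.59 to 0.62 for Csf1 on 1460220_a_at and from 0.58 to 0.61 on 1448914_a_at.

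Ccl2, Ccl7, Cxcl1, Cxcl5, Il6 and Lif, the inflammatory chemokines and gp130 cytokines of the set, had low signals in both groups. Single array values of their 9 probe sets ran from 4.80 to 6.58. Ccl2, the monocyte attractant, stood at 6.12, 6.09 and 6.14 in controls and 5.95, 5.96 and 6.15 in shRNA arrays, which overlap. Il6 stood at 5.24, 5.52 and 5.55 against 5.57, 5.64 and 5.62, where the groups were apart by 0.020. The 3 probe sets of the neutrophil attractant Cxcl1 had control means of 5.80, 5.03 and 4.94 and shRNA means of 5.75, 5.06 and 5.05. Cxcl5, which acts on the same receptor, stood at 5.31 ± 0.26 and 5.29 ± 0.029 (SD, n = 3). Lif was nearest the boundary, with means of 6.49 and 6.45 on 1421207_at, whose mean over all arrays was 6.47, and 5.64 and 5.54 on 1450160_at. The dimmest tested probe set of the 10 genes was 1417574_at of Cxcl12, with a mean over all arrays of 7.10.

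Ccl7, a monocyte attractant whose gene lies next to Ccl2, was the exception among the dim probe sets. Its signals were 5.66, 5.59 and 5.82 in controls and 5.32, 5.13 and 4.90 in shRNA arrays. Every shRNA array lay below every control, with a gap of 0.27. When all 45037 probe sets that are not array controls were fitted with no filter, Ccl7 fell by 0.57 (SE 0.13, limma adjusted p = 0.00383). In that fit 33.6% of all probe sets passed, with 14.8% of all probe sets lower, and 8.25% of the 18015 dim ones passed. Both means were below 6.50, so the size of this change is not settled. The 8 other dim probe sets differed by -0.097 to 0.17 in that fit and none passed (limma adjusted p of 0.336 to 0.945). Among the 9 dim probe sets 2 had groups that did not overlap, Ccl7 and Il6, against 19.0% of all dim probe sets.

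**Figure D3:**
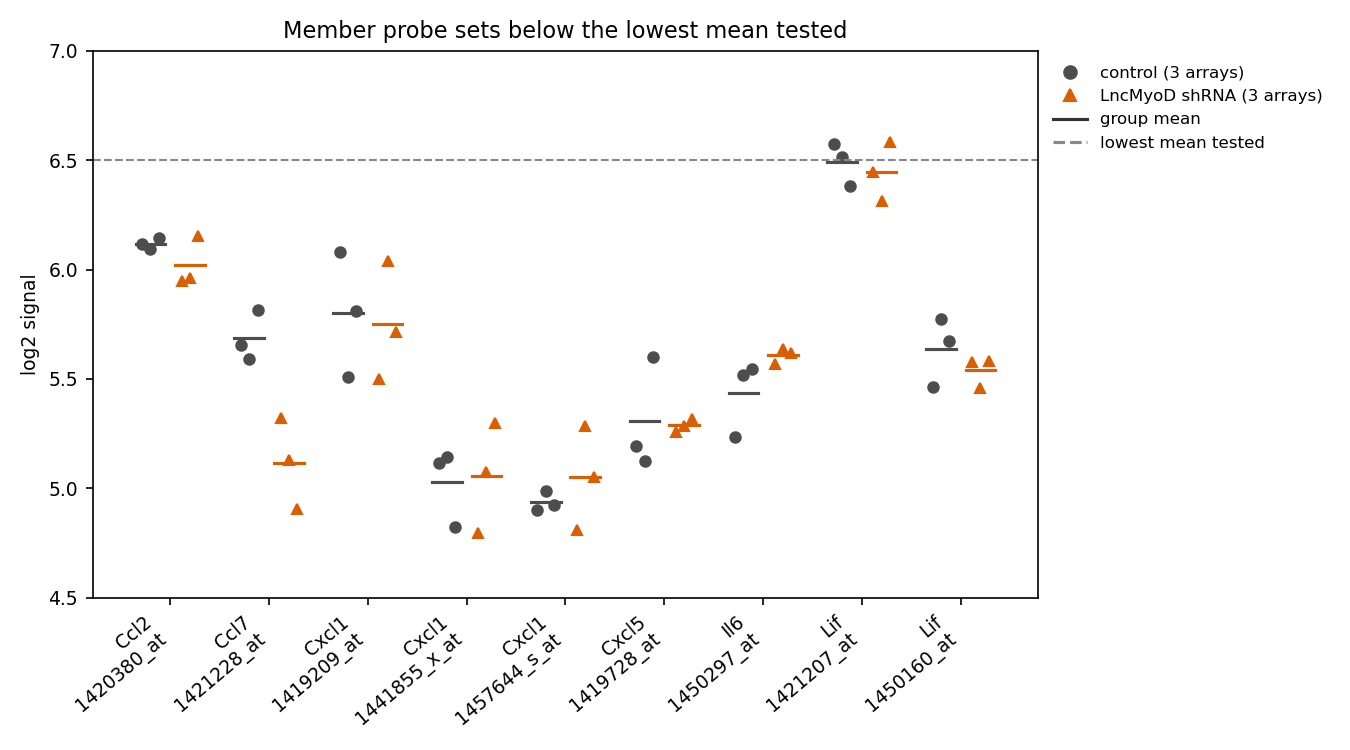
Log2 signal of the 9 member probe sets that were too dim to test (x axis) on each of 3 control arrays (circles) and 3 LncMyoD shRNA arrays (triangles), with group means as bars and the lowest mean tested, 6.50, as a dashed line. All group means lie below the line, and only Ccl7 and Il6 have groups that do not overlap.

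Receptors for the ligands were followed next. Of 10 receptor chains other than Cxcr4 and Ackr3, 8 had a named probe set and 4 were tested. Among these, 3 rose and 0 fell, and their median difference was 0.31, against 0.046 over all 12408 genes tested, of which 58.5% passed limma's test, 35.7% higher and 22.8% lower. Il6st, which encodes gp130, rose on all 4 of its probe sets, by 0.23 to 0.68 (0.39 for their mean). On 1437303_at, where the change was largest, it stood at 9.28, 9.01 and 8.97 in controls and 9.71, 9.81 and 9.77 in shRNA arrays (difference 0.68, SE 0.083, limma adjusted p = 1.62e-05). On the brightest, 1452843_at, it rose from 12.59 ± 0.0088 to 12.84 ± 0.016 (SD, n = 3). Lifr, the partner of gp130 that binds LIF, rose by 0.41 (SE 0.049, limma adjusted p = 1.36e-05) on 1454984_at, from 11.26 ± 0.089 to 11.67 ± 0.022. Its dim probe set 1425107_a_at stood at 7.16 and 7.09 (limma adjusted p = 0.661), and the mean of its probe sets did not pass (0.16, limma adjusted p = 0.0697). Il6ra, the chain specific to IL6, rose from 6.57 to 6.94 (0.37, limma adjusted p = 0.0158), near the lower end of tested signals. Its call was lost without control array 2 or shRNA array 2 or 3 (0.30 to 0.42 over all alternatives, with a limma adjusted p of up to 0.0630). Csf1r, the receptor for CSF1, stood at 6.80 ± 0.046 and 6.78 ± 0.040 (limma adjusted p = 0.920).

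Ccr1, Ccr2, Ccr3 and Cxcr2, through which leukocytes sense the inflammatory chemokines of the set, were below the boundary on every probe set. Ccr2, the receptor for CCL2 and CCL7, had a control mean of 5.09 and an shRNA mean of 5.30 on its brightest probe set. Cxcr2, the receptor for CXCL1 and CXCL5, stood at 5.33 and 5.19.

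Among the 4 atypical chemokine receptors other than Ackr3, only Ackr4 was tested, and it fell. On 1437668_at it stood at 13.53, 13.45 and 13.54 in controls and 12.56, 12.62 and 12.61 in shRNA arrays, a difference of -0.91 (SE 0.038, limma adjusted p = 1.81e-09). On 1437669_x_at, which shares its source sequence, it fell by 0.95. The third probe set, 1426139_a_at, was much dimmer, at 7.10 and 6.80, and did not pass (-0.30, limma adjusted p = 0.0866). In the RefSeq annotation Ackr4, a scavenger of CCL19, CCL21 and CCL25, overlaps the coding gene Acad11. The signal of the bright probe sets therefore cannot be assigned to Ackr4 with certainty. Ackr1, Ackr2 and Ccrl2 were low.

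**Figure D4:**
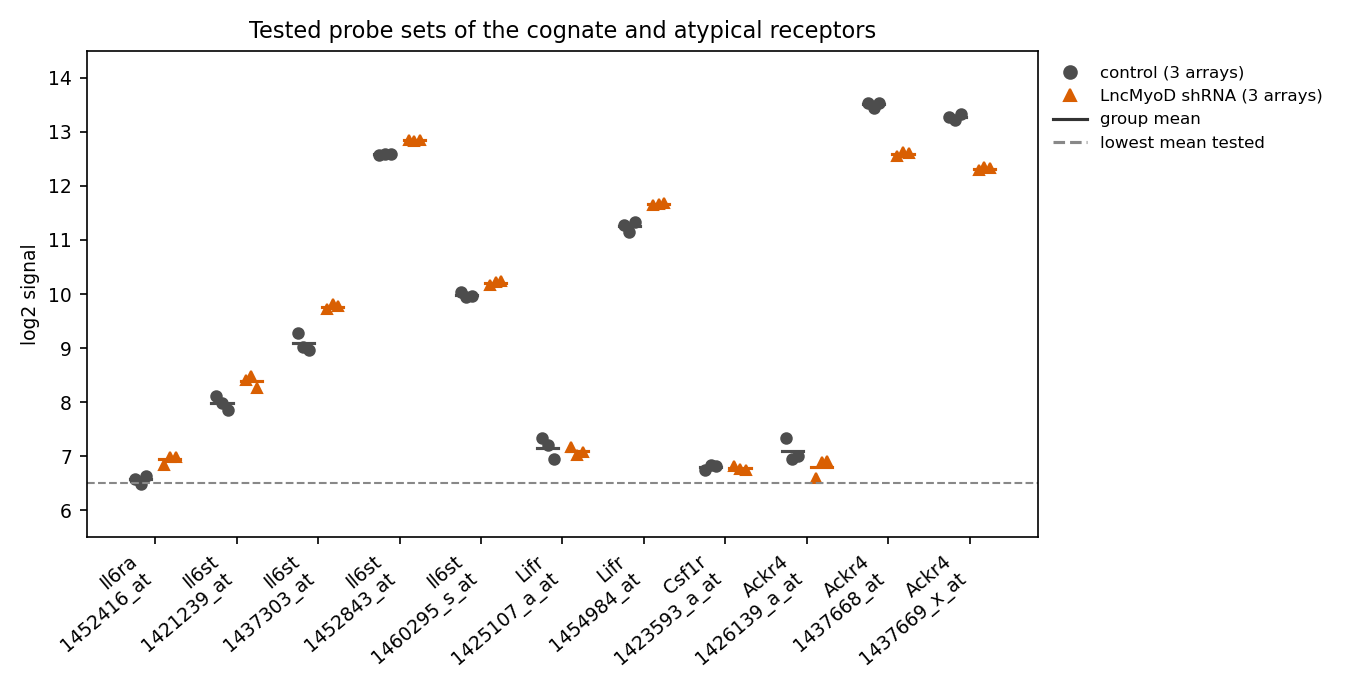
Log2 signal of the 11 tested probe sets of the receptors Il6ra, Il6st, Lifr, Csf1r and Ackr4 (x axis) on each of 3 control arrays (circles) and 3 LncMyoD shRNA arrays (triangles), with group means as bars and the lowest mean tested, 6.50, as a dashed line. The shRNA arrays lie above the controls on all 4 Il6st probe sets and below them on the 2 bright Ackr4 probe sets.

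Most other chemokine genes were dim. Of 31 listed, 29 had a named probe set and 10 were tested. Among these 1 rose and 1 fell, against 35.7% and 22.8% of all genes tested. The median difference of the 10 was -0.072. Ccl25, a chemokine best known from thymus and gut, rose from 10.76 ± 0.054 to 11.50 ± 0.058 (SD, n = 3), by 0.74 (SE 0.049, limma adjusted p = 6.69e-08), with its other tested probe set past the threshold too. In the RefSeq annotation a long non-coding RNA overlaps Ccl25, and Elavl1 is a neighbouring coding gene. What these contribute to its signal was not tested. Ccl27a fell by 0.33 (limma adjusted p = 0.0363), read by 1 probe set open to cross-hybridization. Ccl27a overlaps Il11ra1 in the RefSeq annotation, and its call was lost in 6 of 16 alternatives, 4 of which left out an array (control array 2 or 3, shRNA array 2 or 3).

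Of 26 other cytokines 23 had a named probe set and 12 were tested. Among these 2 rose and 5 fell, against 35.7% and 22.8% of all genes tested. The median difference of the 12 was -0.087. Il15, a cytokine abundant in muscle that sustains lymphocytes, fell from 7.76 ± 0.056 to 6.08 ± 0.085 (SD, n = 3), a difference of -1.68 (SE 0.11, limma adjusted p = 6.38e-08). Its shRNA mean lay below 6.50, so it passed the filter through the control arrays and the size is not settled. Over all alternatives the difference ran from -1.74 to -1.26. Ctf1, cardiotrophin-1, another ligand of gp130 and LIFR, rose by 0.62 (SE 0.048, limma adjusted p = 2.90e-07), from 11.38 to 12.00. Tslp, which acts on dendritic cells, rose by 0.97 (SE 0.093, limma adjusted p = 1.87e-06), from 7.80 to 8.77. The 4 others past the threshold, named after their values were seen, were all lower. Kitl, the ligand of the receptor KIT, fell by 0.79 (limma adjusted p = 4.10e-06). Only 1 of its 3 other tested probe sets passed, and the mean of its probe sets differed by -0.45. Il1rn, the antagonist of the interleukin-1 receptor, went from 6.86 to 6.25 (-0.61, limma adjusted p = 0.00225). Its shRNA mean was below 6.50, so it too passed the filter through the control arrays. With values raised to that boundary the difference was -0.36. Il34, the second ligand of CSF1R, differed by -0.27 (limma adjusted p = 0.0409), a call kept in 8 of 17 alternatives. It was lost with no filter and when any array but control array 3 was left out. Mif differed by -0.12 (limma adjusted p = 0.0102), a call lost without shRNA array 2, and the mean of its probe sets did not differ in that direction (0.0020).

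NF-kB is the factor that induces many inflammatory chemokine genes. Among 14 tested genes of NF-kB and its feedback, 9 rose and 1 fell, against 35.7% and 22.8% of all genes tested. Their median difference was 0.30, against 0.046 over all genes. The other 4, Nfkb2, Rel, Nfkbiz and Icam1, did not pass, and Birc3, Traf1 and Bcl3 were too dim to test. Nfkbia, the inhibitor that NF-kB induces, rose by 0.56 (SE 0.043, limma adjusted p = 2.58e-07), with all 5 of its tested probe sets past the threshold. Ikbkb, a kinase of the pathway, rose by 0.59 (SE 0.048) on its brightest probe set and by 0.29 on the mean of its probe sets. Ikbkg, the regulatory subunit NEMO, fell by 0.75 (SE 0.053), with its 5 other tested probe sets lower too. Ikbkg overlaps G6pdx and Fam3a in the annotation.

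Transcripts of listed genes that act downstream of gp130 moved both ways. The activity of their proteins was not measured. Among 10 tested genes, 3 rose and 5 fell, against 35.7% and 22.8% of all genes tested, and the median difference was -0.077. The kinase Jak2 rose by 0.58 (SE 0.052), while Stat5b (-0.89, SE 0.055) and the phosphatase Ptpn11 (-0.39, SE 0.039) fell. The mean of the probe sets of Stat5b differed by -0.56. Stat3, named after its values were seen, fell by 0.47 (SE 0.082, limma adjusted p = 0.000304), with 1 of its 2 other tested probe sets lower too. Socs3, the feedback inhibitor that STAT3 induces, was low at 5.51 and 5.84.

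The listed RNA-binding proteins and cofactors that set the stability of cytokine mRNAs were all tested. Among the 9 genes, 4 rose and 2 fell, against 35.7% and 22.8% of all genes tested, and the median difference was 0.084. Zfp36l2 (0.51, SE 0.055) and Rc3h1, roquin-1 (0.24, SE 0.041), rose, as did Tnrc6a (0.28, SE 0.041), a partner of Argonaute. The 2 with a call in the other direction, Elavl1 (-0.14) and Hnrnpd (-0.15), were named after their values were seen, and neither call held in every alternative. The direction of Elavl1, which encodes HuR, a protein that stabilizes such mRNAs, was not settled. Of its 5 other tested probe sets 2 fell and 3 rose, and the mean of its probe sets differed by 0.11. The call of Hnrnpd was kept in 10 of 17 alternatives and lost with no filter (limma adjusted p = 0.0604) and without control array 1 or 3 or shRNA array 1 or 2. Its 2 other tested probe sets fell past the threshold too, and over all alternatives its difference ran from -0.31 to -0.097.

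Among 7 tested genes listed as partners of CXCL12 signalling, 4 rose and 2 fell, against 35.7% and 22.8% of all genes tested. Their median difference was 0.11. The G protein subunit Gnai1 rose by 0.48 (SE 0.035) and the arrestin Arrb2 by 0.50 (SE 0.052), each with its other tested probe sets past the threshold. Rgs16, which shortens G protein signalling, fell by 0.80 (SE 0.087), from 10.01 to 9.20. Only 1 of its 2 other tested probe sets passed, and the mean of its probe sets differed by -0.50. The others past the threshold, named after their values were seen, were Gnai3 (0.11), Grk6 (0.53) and Grk5 (-0.87). The call of Gnai3 was kept in 7 of 17 alternatives. Of the 2 other tested probe sets of Grk6, 1 passed. Grk5 went from 7.31 to 6.43, so it passed the filter through the control arrays and the size is not settled.

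**Figure D5:**
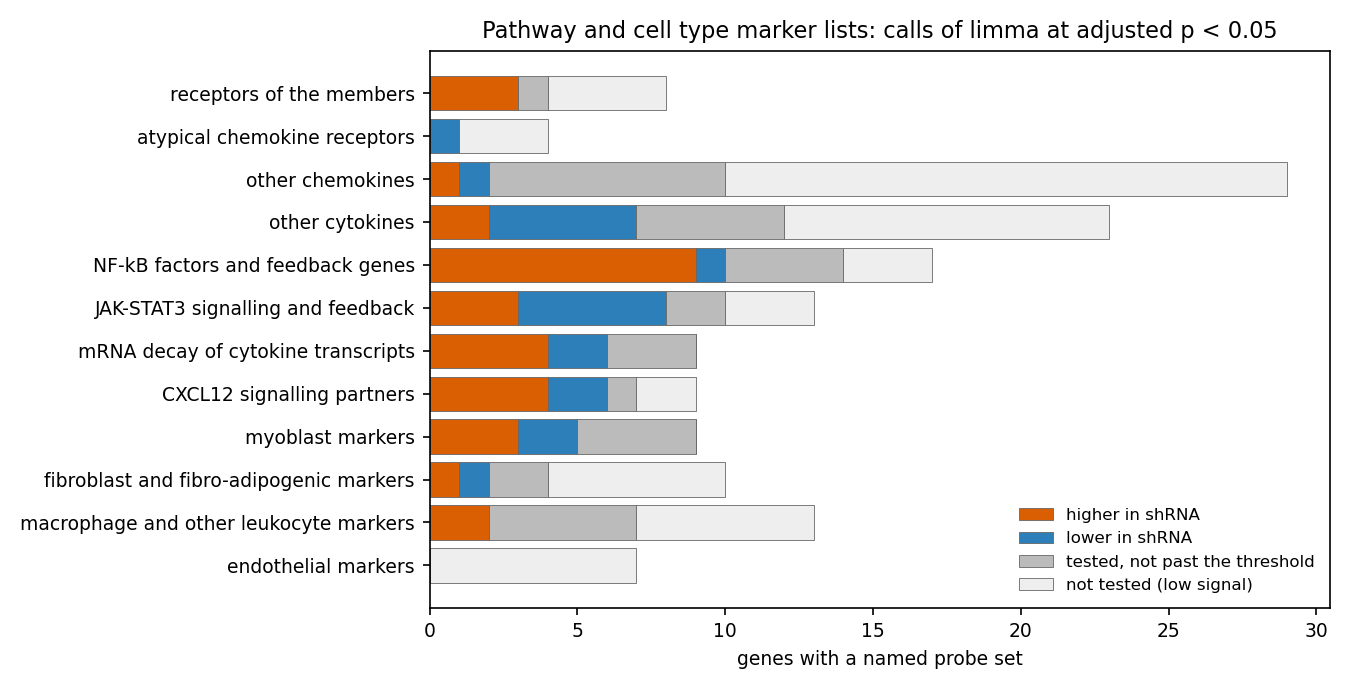
Number of genes with a named probe set in each of 12 lists (y axis), divided into those higher in LncMyoD shRNA, lower, tested but not past limma's adjusted p of 0.05, and not tested for low signal. Of 14 tested NF-kB genes 9 were higher and 1 lower, against 35.7% and 22.8% of all genes tested. Of 29 other chemokines 19 were too dim to test.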

How the data were processed

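The authors deposited normalized log2 signals of 6 arrays; the log2 scale was read from their range (4.48 to 14.6). PLIER and MAS5 are named, with no role, in the submitters' processing notes. No version, background correction or offset is given in the sources used here. The median over all probe sets was 7.23 on control array 1, and those of the other arrays are not given here. Normalization can align arrays even if total RNA changed, which was not tested. Arrays have no read depth, and their number limits precision. Of the value columns, 0 lacked a sample. Arrays of a group correlated at 0.996 or more.

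Of 45101 probe sets, 34958 had 1 gene symbol, 932 several and 9211 none here. After 64 array controls, the 40% with the lowest mean (18015) were left out. Differences were fitted as shRNA minus control with limma 3.58.1 in R 4.3.3 (lmFit, eBayes with a mean-variance trend), adjusted by Benjamini-Hochberg over 27022 probe sets, after tests on simulated data. SDs are over 3 arrays. List genes were matched by gene identifier (151 of 164 had a named probe set; the others are not analysed here) and read by the tested probe set with the highest mean, _x_at only without another.

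Named are all members, the tested receptors, and in each list up to 3 genes with the smallest p past the threshold; others were named after their values were seen. Members and lists were chosen with earlier results of these data known.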

Additional observations from a re-analysis of the deposited data

How the results depend on the processing

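The 4 member calls (Cxcr4, Cxcl12 on 1448823_at, Csf1 on 1448914_a_at and 1460220_a_at) held with no filter or a weaker one, 3 other array scalings, other variance models, dim values raised to the boundary, cross-hybridizing probe sets left out and each array left out. The count of called member probe sets was 4 to 6 with 1 array left out and 4 to 5 otherwise, and that of all probe sets 12642 to 14942 and 12669 to 15351. List genes past the threshold numbered 52 of 87 tested (58.5% passed over all genes), and 43 to 57 over all alternatives. With the replicate number as a block, 13646 probe sets and 4 of the members passed, but same-numbered arrays did not deviate together (r = -0.13, -0.062 and 0.031), so the numbers do not pair the samples. Differences that did not pass changed sign in Cxcl12 on 1417574_at (-0.39 to 0.016 with 1 array left out) and 1439084_at (-0.060 to 0.37), and in Csf1 on 1425154_a_at (-0.027 to 0.11) and 1425155_x_at (-0.063 to 0.075). Those of Csf1 also did with arrays centred (-0.037 and -0.057) or quantile normalized (-0.017 and -0.042), and the second with spike-in scaling (-0.0032). Of the 28 list genes past the threshold that the naming rule gave, 24 stayed past it in every alternative that tested them, and Il6ra, Lifr, Ccl27a and Cd68 did not. Of those named after their values were seen, Il34, Mif, Hnrnpd, Elavl1, Myog, Ncam1 and Gnai3 lost the call in at least 1 alternative. Il1rn, Kitl, Stat3, Grk5 and Grk6 kept it in all that tested them. Whether the 64 list genes and 9 member probe sets of low signal were above background was not tested.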

Other observations

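Of 64 list genes that were too dim to test, 7 passed the threshold in limma's fit with no filter, against 8.25% of all dim probe sets, and are named for that reason after their values were seen. Il12a, a subunit of interleukin-12, moved from 5.66 to 6.72 (1.05, limma adjusted p = 1.09e-05), and Arrb1, an arrestin that binds activated chemokine receptors, from 5.18 to 6.03 (0.86, limma adjusted p = 4.20e-05). Cish, an inhibitor of STAT5 signalling, moved from 5.65 to 6.28, Ccl6 from 5.14 to 5.67 and Cd53 from 6.24 to 6.69. Cxcl14 moved from 6.63 to 6.20 and Tie1 from 6.10 to 5.72. In each of the 7 at least 1 group mean was below 6.50, so these sizes are not settled.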
